A study of Mus musculus with 8 samples.

Results

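The genes compared here make, read and degrade the second messengers cAMP and cGMP. They were taken by symbol from the count files as the adenylyl cyclases (Adcy), the soluble guanylyl cyclase subunits (Gucy1a and Gucy1b), the receptor guanylyl cyclases (Gucy2, Npr1, and Npr2), the cyclic nucleotide phosphodiesterases (Pde1 to Pde11), the subunits of cAMP-dependent protein kinase (PKA), and the cGMP-dependent protein kinases (PKG). The rule used names and no measured value, and 49 of the 18533 gene symbols met it. Of these, 41 passed a filter on low counts and were tested. The other 8 were Adcy10, Gucy1b2, Gucy2c, Gucy2e, Gucy2f, Pde6a, Pde9a, and Pde11a, of which Gucy2c had the highest count, at 13, in any sample.

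RNA-Seq was run on mouse aortic smooth muscle cells (MASMCs), primary cells grown from aorta after the adventitia and endothelium were taken off. WT cells (n = 4) were compared with cells from Hint1-/- mice (n = 4), and the methods give male donors aged 4 to 6 weeks. Every sample received PDGF-BB, a growth factor that drives smooth muscle cells toward a synthetic state, at 20 ng/mL for 24 hours. No sample without PDGF-BB was analysed here, so each difference below is between genotypes under PDGF-BB. HINT1 is a small histidine triad nucleotide hydrolase. The Hint1-/- mice lack the gene in all tissues rather than in smooth muscle alone. The sources used here do not say whether the 4 samples of a genotype came from separate mice or cultures, and p-values then measure only the spread between these samples.

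Each sample held between 20778077 and 20888041 estimated counts, whole-library totals that differed little. Hint1 itself had between 2272 and 2364 counts in WT samples and between 713 and 778 in Hint1-/- samples, or 32.1% of the WT level, lower as the labels require. The deleted part of the gene is not given in the sources used here. No sample stood apart from its genotype. A chi-square per gene reached at most 5.47 in the 12 same-genotype pairs and at least 11.8 in the 16 mixed pairs. Markers of smooth muscle were abundant, with summed levels of 2626 to 2800 CPM (counts scaled to the library size) in WT samples and 2435 to 2527 CPM in Hint1-/- samples, and 5 of 8 were lower and 1 (Smtn) was higher. Most of that sum came from Cald1, which was not called and stood at 104% of WT, and from Acta2, at 70.0%. The far less abundant Myh11 and Cnn1 fell further, to 34.3% and 45.9% of WT. They were the 2 markers of this list that also passed a fold change of 1.5. Macrophage markers were abundant as well (2107 to 2425 CPM in WT and 1694 to 1809 CPM in Hint1-/- samples), with 7 of 8 lower. Schwann cell markers summed to 50.4 to 56.8 CPM in WT and 12.9 to 15.3 CPM in Hint1-/- samples, with 7 of 8 lower. The 8 fibroblast markers summed to 2561 to 2622 CPM in WT and 3364 to 3564 CPM in Hint1-/- samples, with 3 higher and 3 lower, and without Dcn to 1394 to 1509 CPM in WT and 1414 to 1524 CPM in Hint1-/- samples. Cardiac muscle markers summed to 1.91 to 2.69 CPM in WT and 5.83 to 9.18 CPM in Hint1-/- samples. Of the 4 tested, 3 were higher, and Myl2, Nppa, Ryr2, and Actc1 were below the filter. Of the 3, Myl7 (0 counts in every WT sample) and Myh6 (at most 3) passed the filter through the Hint1-/- samples alone. Their calls could thus only be higher. Over all tested genes, edgeR called 11.2% higher and 10.2% lower. By edgeR's quasi-likelihood test, DESeq2, and limma-voom, 0 of the 6 tested endothelial and 0 of the 3 tested adipocyte markers were called, with 1 of each (Cdh5 and Fabp4) at an unadjusted p under 0.05 in edgeR. The endothelial sum lay between 6.98 and 9.75 CPM in all samples. The adipocyte sum lay between 91.9 and 107 CPM, and nearly all of it came from Fabp4 (994 to 1205 counts) and Lpl (837 to 1184 counts). Pparg had 14 to 22 counts, and Adipoq, Plin1, and Cidec had at most 4. The part of these other cell types in the results below was not tested, and in bulk RNA fewer cells of a type and less RNA per cell cannot be told apart.

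As background, adenylyl cyclases are switched on or off by G proteins coupled to cell surface receptors and make cAMP, which frees the catalytic subunits of PKA from its regulatory subunits. Soluble guanylyl cyclase is the receptor for nitric oxide (NO), natriuretic peptides act through the receptor cyclases Npr1 and Npr2, and the cGMP that they make activates PKG. In vascular smooth muscle both messengers relax the cell and restrain its growth. Phosphodiesterases hydrolyse one or both messengers, and the families differ in substrate and in how calcium and cGMP regulate them.

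Of the 41 tested genes, 15 passed an adjusted p of 0.05 in the quasi-likelihood test of edgeR with Benjamini-Hochberg adjustment over all genes. Over the whole table, 21.5% of the 13535 tested genes did so. Pde4b, Pde1a, Pde5a, and Adcy8 were higher in Hint1-/- MASMCs, against a background of 11.2% of all genes higher. Pde1b, Pde2a, Pde3a, Adcy2, Adcy5, Gucy1a1, Gucy1b1, Prkacb, Prkar2a, Prkar2b, and Prkg2 were lower, against 10.2% of all genes lower. The differences were small. Adcy8 was the single member past a fold change of 1.5 as well, a pair of limits that 2.83% of all genes passed in either direction and 1.34% passed as higher. The tested members had a median log2 fold change of −0.10 (Hint1-/- against WT) and a median size of 0.15, beside 0.00 and 0.09 over all tested genes. In 14 of the 41 genes the genotypes did not overlap, as was so for 23% of all tested genes. These 14 were 13 of the 15 called genes and Pde7a, whereas Adcy5 and Adcy8 overlapped between genotypes.

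**Figure D1:**
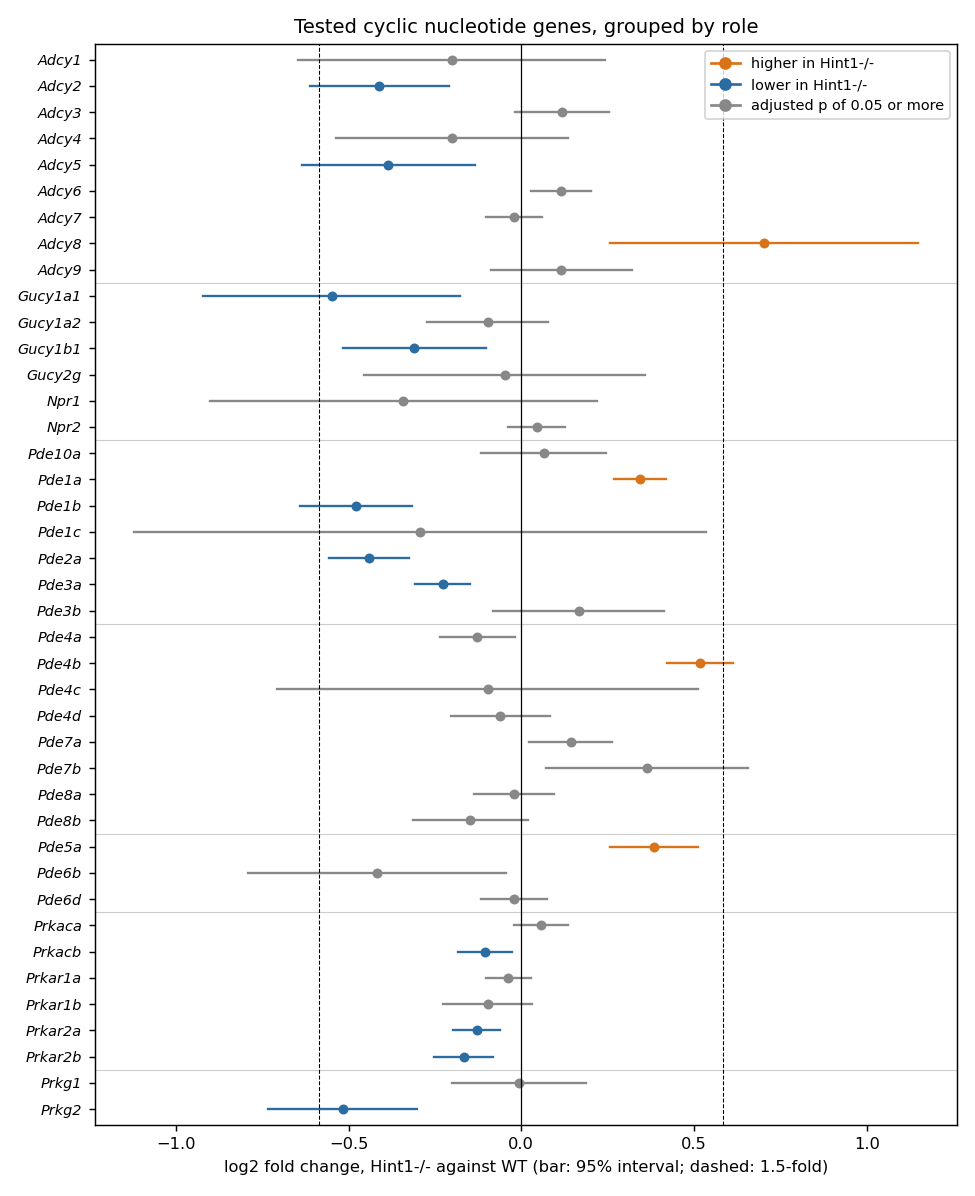
Log2 fold change of each of the 41 tested genes (x axis, Hint1-/- against WT), grouped by role, with bars for 95% intervals and dashed lines at a 1.5-fold change. Orange genes (4) were higher, blue genes (11) were lower, gray genes (26) had an adjusted p of 0.05 or more, and Adcy8 is the single called gene beyond a dashed line.

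The soluble guanylyl cyclase pair is shown first by sequence, because Gucy1a1 and Gucy1b1 encode the α1 and β1 chains of one NO receptor, lie next to each other on chromosome 3, and were both lower. Gucy1b1 spans 82032006 to 82074689 and Gucy1a1 spans 82092427 to 82145789 on chromosome 3 of mm10, a gap of 17737 bases, both on the minus strand. The type II regulatory subunits of PKA, Prkar2a and Prkar2b, form a second pair of related subunits that were both lower, on chromosomes 9 and 12. The 250 bases before 1 RefSeq start of each gene (GRCm38.p6) are given 5′ to 3′ on the gene's strand, and these genes were chosen after their values had been seen. Capitals mark a match to a motif searched on both strands, which was the AP-2 site GCCNNNGGC in Gucy1a1, Prkar2a, and Prkar2b and the core CREB motif TGACG, read on the opposite strand, in Gucy1b1. AP-2 α is a factor that the study examined, and CREB is the transcription factor that PKA phosphorylates.
Gucy1a1, chr3:82145651-82145900, minus strand: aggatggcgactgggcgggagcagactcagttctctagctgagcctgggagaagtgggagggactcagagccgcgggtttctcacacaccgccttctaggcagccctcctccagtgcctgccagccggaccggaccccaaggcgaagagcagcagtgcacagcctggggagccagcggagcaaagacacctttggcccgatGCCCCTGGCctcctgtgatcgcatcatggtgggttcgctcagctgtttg
Gucy1b1, chr3:82074712-82074961, minus strand: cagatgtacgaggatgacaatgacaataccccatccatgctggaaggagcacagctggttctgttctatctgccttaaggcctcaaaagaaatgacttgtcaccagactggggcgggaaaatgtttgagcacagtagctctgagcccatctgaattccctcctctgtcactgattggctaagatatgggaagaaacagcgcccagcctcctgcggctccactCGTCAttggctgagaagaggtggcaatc
Prkar2a, chr9:108691893-108692142, plus strand: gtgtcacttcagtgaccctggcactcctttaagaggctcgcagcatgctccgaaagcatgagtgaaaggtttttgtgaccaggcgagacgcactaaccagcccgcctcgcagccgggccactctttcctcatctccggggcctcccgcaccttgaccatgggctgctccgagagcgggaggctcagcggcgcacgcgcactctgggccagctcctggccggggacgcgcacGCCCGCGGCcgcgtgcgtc
Prkar2b, chr12:32061278-32061527, minus strand: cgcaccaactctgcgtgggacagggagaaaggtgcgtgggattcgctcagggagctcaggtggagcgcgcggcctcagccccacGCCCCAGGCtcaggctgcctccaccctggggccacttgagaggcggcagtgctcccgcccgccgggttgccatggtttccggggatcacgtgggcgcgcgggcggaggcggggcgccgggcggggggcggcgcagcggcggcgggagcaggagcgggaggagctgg

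The matches lay 49 to 41 bases before the RefSeq start in Gucy1a1, 28 to 24 in Gucy1b1, 19 to 11 in Prkar2a, and 166 to 158 in Prkar2b. In GENCODE M21 the spans of Gucy1a1, Prkar2a, and Prkar2b begin farther upstream, at 82145789, 108689314, and 32061296. By that annotation the matches of Gucy1a1 and Prkar2a lie inside the gene and not before it. The match of Prkar2b still lies before its gene, at a shorter distance. RefSeq promoters were found for 12 of the 15 called genes, with 28 upstream regions in all, and Adcy8 had no entry. The full CREB site TGACGTCA was in none of the 28 regions and in 1.55% of the 32851 regions of the same length in the mouse table. The core motif, which the full site contains, was in 4 of the 28 regions (1 each of Gucy1b1, Pde1a, Pde4b, and Prkacb), beside 17.8% of all regions. The AP-2 site was in 5 of the 28 (of Gucy1a1, Pde2a, Prkar2a, and Prkar2b), beside 13.7% of all regions.

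Adenylyl cyclases were carried by a few abundant genes that did not pass the test and by low genes that did. Per kilobase of merged exons, Adcy7, which G protein βγ subunits stimulate, made up 40.6% ± 1.28 of the summed cyclase level in WT samples (SD, n = 4). Adcy6, which calcium and Gi inhibit, made up 32.8% ± 0.399. Adcy7 had a log2 fold change of −0.02 (95% interval −0.10 to 0.06) and Adcy6 of 0.11 (0.03 to 0.20, adjusted p = 0.0582 by edgeR's quasi-likelihood test). The share of Adcy6 was 34.8% ± 1.20 in Hint1-/- samples. It did not overlap the WT shares, but the highest WT share (33.26%) and the lowest Hint1-/- share (33.31%) nearly met. By CPM, Adcy6 itself overlapped between genotypes.

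Adcy2, another cyclase stimulated by βγ subunits, lies on chromosome 13 from 68620043 to 68999541. It had 131, 126, 121, and 142 counts in WT samples 1 to 4 and 96, 100, 94, and 98 in Hint1-/- samples 1 to 4. All 4 Hint1-/- samples lay below all 4 WT samples, and Adcy2 fell to 75.2% of the WT level (log2 fold change −0.41, SE 0.0955, adjusted p = 0.00424 by edgeR's test).

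Adcy5, the close relative of Adcy6, lies on chromosome 16 from 35154877 to 35305738. It had 141, 134, 141, and 158 counts in WT samples and 102, 84, 136, and 114 in Hint1-/- samples. Hint1-/- sample 3, at 136 counts, lay above WT sample 2, so the genotypes overlapped. Adcy5 fell by 0.39 on the log2 scale (SE 0.119, adjusted p = 0.0263 by edgeR's test). The call was lost without WT replicate 3 or 4 or Hint1-/- replicate 1 or 2, at adjusted p values of 0.0511, 0.0730, 0.0717, and 0.0954, and p ranged from 0.00457 to 0.0954 over the 15 alternatives.

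Adcy8, a cyclase activated by calcium and calmodulin and best known from neurons, lies on chromosome 15 from 64697084 to 64922296. It had 27, 19, 23, and 20 counts in WT samples and 40, 35, 25, and 44 in Hint1-/- samples. In CPM, WT samples averaged 1.06 ± 0.174 and Hint1-/- samples 1.74 ± 0.396 (SD, n = 4), 163% of WT and still 0.645% of the summed cyclase level per kilobase. Hint1-/- sample 3 lay within the WT range. The log2 fold change of 0.70 (SE 0.213, adjusted p = 0.0235 by edgeR's test) rested on these low counts. Without WT replicate 2 or 4 or Hint1-/- replicate 1 or 4 the adjusted p was 0.0617, 0.0569, 0.0683, and 0.0909, within a range of 0.00751 to 0.0909 over the 15 alternatives.

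The other cyclases gave no call. Adcy3, stimulated by calcium and calmodulin and known from olfactory neurons, had 427 to 576 counts and a log2 fold change of 0.12. Its exons share 24.3% of their length with Cenpo on the other strand, and the sources used here do not state whether counting used strand. Adcy9 (177 to 252 counts), Adcy4 (38 to 67 counts), and Adcy1 (16 to 23 counts) had log2 fold changes of 0.12, −0.20, and −0.20. Adcy10, the soluble cyclase activated by bicarbonate, had at most 2 counts.

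**Figure D2:**
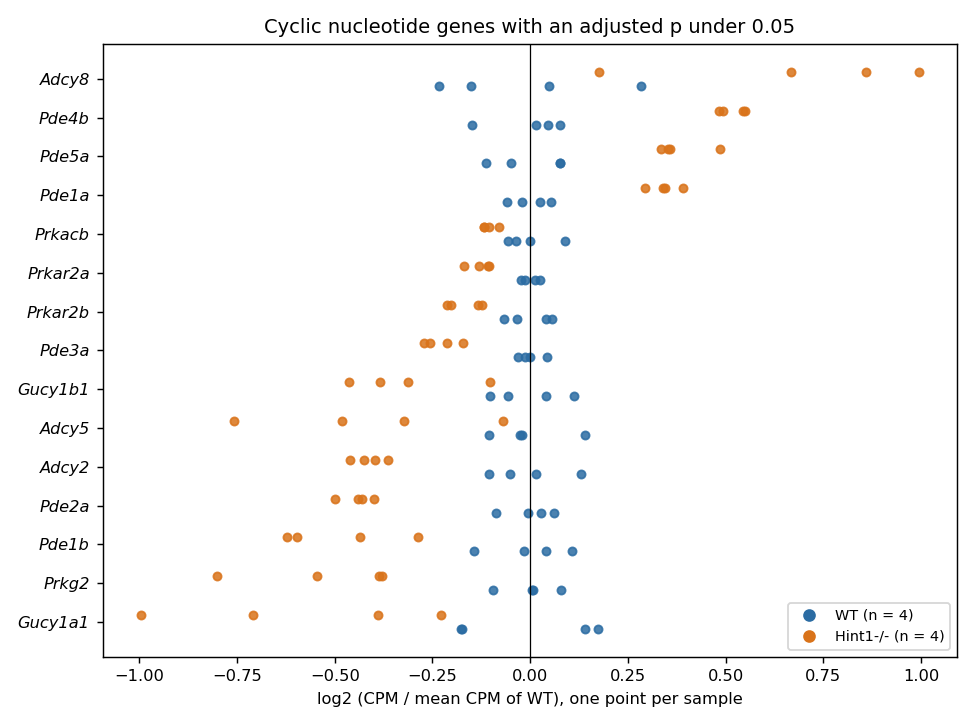
Level of the 15 called genes in each sample, as log2 of CPM over the mean CPM of WT (x axis), with 1 point per sample. Blue (WT, n = 4) and orange (Hint1-/-, n = 4) points separate in 13 genes and overlap in Adcy5 and Adcy8.

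On the cGMP side, both chains of the NO-sensitive α1β1 cyclase were lower. Gucy1b1, the chain that binds heme, had 137, 155, 147, and 133 counts in WT samples and 132, 114, 109, and 103 in Hint1-/- samples. The genotypes came within 1 count of each other, at 133 and 132, without overlapping. The level was 80.7% of WT (log2 fold change −0.31, SE 0.0982, adjusted p = 0.0302 by edgeR's test).

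Gucy1a1 was the less abundant chain, with 61, 60, 48, and 48 counts in WT samples and 27, 41, 33, and 46 in Hint1-/- samples. It stood at 68.3% of WT (log2 fold change −0.55, SE 0.177, adjusted p = 0.033 by edgeR's test). The genotypes were again close, with Hint1-/- sample 4 at 46 beside the lowest WT samples at 48.

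Both calls were among the least secure. Gucy1a1 lost its call without WT replicate 1 or 2 or Hint1-/- replicate 1 or 3 and in DESeq2 (adjusted p 0.0562 to 0.114, in a range from 0.0196 over all alternatives). Gucy1b1 lost its call without WT replicate 2 or 3 or Hint1-/- replicate 2, 3, or 4 and in DESeq2 (adjusted p 0.0608 to 0.0993, in a range from 0.0127).

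Gucy1a2, the α2 chain that can replace α1, was more abundant than either, at 5.6 ± 0.716 CPM per kilobase in WT beside 2.12 ± 0.141 for Gucy1b1 and 0.538 ± 0.0714 for Gucy1a1. Its counts of 226 to 300 in WT and 224 to 255 in Hint1-/- samples overlapped (log2 fold change −0.10, 95% interval −0.27 to 0.08). The summed soluble cyclase level was 8.26 ± 0.877 CPM per kilobase in WT and 7.32 ± 0.266 in Hint1-/- MASMCs (SD, n = 4), and those ranges overlapped too. Gucy1b2 had at most 1 count in any sample.

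Among the receptor cyclases, Npr2, the receptor of C-type natriuretic peptide, was by far the highest at 21.9 ± 0.611 CPM per kilobase in WT and 22.6 ± 1.14 in Hint1-/- samples, a log2 fold change of 0.04 (95% interval −0.04 to 0.13). Npr1, the receptor of atrial natriuretic peptide, had 11 to 20 counts in WT and 10 to 14 in Hint1-/- samples (log2 fold change −0.34, 95% interval −0.90 to 0.22), an interval too wide to show a difference at this depth. Gucy2g had 20 to 27 counts and a log2 fold change of −0.05. The gut receptor Gucy2c (5 to 13 counts) and the photoreceptor cyclases Gucy2e and Gucy2f (at most 7 counts) were below the filter.

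Phosphodiesterases moved in both directions. Of 18 tested genes, 3 were higher and 3 were lower. That is 33.3% called, beside 21.5% of all tested genes (11.2% higher and 10.2% lower). Their median log2 fold change was −0.04 beside 0.00 over all genes. Among the 7 tested genes of families that hydrolyse both messengers, 1 was higher and 3 were lower. One of the 8 genes of cAMP-specific families and 1 of the 3 tested genes of cGMP-specific families were higher. In either group 0 were lower by edgeR, DESeq2, or limma-voom, with 1 of each (Pde4a and Pde6b) lower at an unadjusted p under 0.05 in edgeR. The 18 and the 3 include Pde6d, which is named as a phosphodiesterase but encodes no enzyme.

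Pde1a and Pde1b belong to the family that calcium and calmodulin activate, and they moved apart. Pde1a, on chromosome 2 from 79834453 to 80129458, was the most abundant catalytic phosphodiesterase per kilobase. It had 1726, 1607, 1698, and 1640 counts in WT samples and 2029, 2089, 2108, and 2173 in Hint1-/- samples. The lowest Hint1-/- sample was well above the highest WT sample, and the level rose from 79.8 ± 2.75 to 101 ± 2.78 CPM (SD, n = 4), 127% of WT. Pde1a thus rose by 0.34 on the log2 scale (SE 0.0359, adjusted p = 1.08e-06 by edgeR's test).

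Pde1b, on chromosome 15 from 103503034 to 103530052, had 386, 407, 372, and 340 counts in WT samples and 276, 242, 307, and 247 in Hint1-/- samples. It was lower in every Hint1-/- sample, at 71.8% of WT (log2 fold change −0.48, SE 0.0768, adjusted p = 0.000152 by edgeR's test). Per kilobase, the share of Pde1a in the PDE1 level was 76.6% ± 1.50 in WT and 85.2% ± 1.46 in Hint1-/- MASMCs, while that of Pde1b was 23.3% ± 1.53 and 14.6% ± 1.53. Neither pair of ranges overlapped. Pde1c, the isoform linked with proliferating smooth muscle, had 5 to 20 counts and was not called (log2 fold change −0.29, 95% interval −1.12 to 0.53).

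Pde2a and Pde3a are the enzymes through which cGMP acts on cAMP, since cGMP stimulates PDE2 and inhibits PDE3. Pde2a, on chromosome 7 from 101421691 to 101512827, had 438, 467, 476, and 486 counts in WT samples and 341, 327, 352, and 344 in Hint1-/- samples. The 4 samples of each genotype lay close together and far from the others. Pde2a fell to 73.6% of WT (log2 fold change −0.44, SE 0.0554, adjusted p = 9.88e-06 by edgeR's test). Its exons share 87.9% of their length with Gm45837, an overlapping gene model on the same strand that is not a symbol of the count files, so the counts cannot be assigned to Pde2a transcripts alone.

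Pde3a, on chromosome 6 from 141249269 to 141507448, is the PDE3 gene typical of heart and vessels. It had 1087, 1136, 1100, and 1075 counts in WT samples and 903, 939, 915, and 969 in Hint1-/- samples. All Hint1-/- samples were below all WT samples, at 85.4% of WT (log2 fold change −0.23, SE 0.0377, adjusted p = 0.000207 by edgeR's test). Pde3b, the PDE3 gene typical of fat and liver, had 145 to 231 counts in WT and 166 to 228 in Hint1-/- samples and was not called (log2 fold change 0.17, 95% interval −0.08 to 0.41). Pde10a, the striatal dual enzyme, had 196 to 252 counts and a log2 fold change of 0.06, and Pde11a had at most 5 counts.

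Pde4b, of the cAMP-specific family that rolipram inhibits, had the smallest adjusted p of all members. It lies on chromosome 4 from 102087543 to 102607259. It had 865, 852, 831, and 741 counts in WT samples and 1139, 1191, 1152, and 1190 in Hint1-/- samples. Every Hint1-/- sample exceeded every WT sample, and the level rose from 39.3 ± 2.65 to 56.3 ± 1.33 CPM (SD, n = 4), 143% of WT. Its rise of 0.52 on the log2 scale (SE 0.0452, adjusted p = 1.2e-07 by edgeR's test) was just under the 1.5-fold limit.

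The other PDE4 genes gave no call. Pde4a, the highest of the family in WT, had 737 to 774 counts in WT and 644 to 765 in Hint1-/- samples (log2 fold change −0.13, adjusted p = 0.0881 by edgeR's test). Pde4d had 201 to 234 counts in all samples and Pde4c 9 to 24, with log2 fold changes of −0.06 and −0.10. Within the PDE4 level per kilobase, Pde4a made up 49.4% ± 1.66 and Pde4b 36.5% ± 1.57 in WT samples. In Hint1-/- samples Pde4b was the larger share, at 47.2% ± 1.77 beside 40.7% ± 2.13 for Pde4a (SD, n = 4), and neither share overlapped between genotypes.

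Among the remaining cAMP-specific genes, Pde7a had 382 to 444 counts in WT and 442 to 472 in Hint1-/- samples. By CPM its genotypes did not overlap, but the test gave no call (log2 fold change 0.14, 95% interval 0.02 to 0.26, adjusted p = 0.0879 by edgeR's test). Pde7b had 67 to 84 counts in WT and 74 to 120 in Hint1-/- samples (log2 fold change 0.36, adjusted p = 0.0723). Pde8a, a high-affinity cAMP enzyme that rolipram does not inhibit, was the second most abundant catalytic phosphodiesterase gene per kilobase. It had 524 to 618 counts and a log2 fold change of −0.02 (95% interval −0.14 to 0.09). Pde8b had 145 to 183 counts and a log2 fold change of −0.15.

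Pde5a, the cGMP-specific enzyme that sildenafil inhibits, rose. It lies on chromosome 3 from 122728947 to 122859374. It had 360, 362, 331, and 316 counts in WT samples and 435, 427, 435, and 476 in Hint1-/- samples. All 4 Hint1-/- samples were above the WT range, at 130% of WT (log2 fold change 0.38, SE 0.0612, adjusted p = 0.00014 by edgeR's test). Pde6d was the most abundant Pde symbol per kilobase at 29.9 ± 0.539 CPM per kilobase in WT, but it encodes a chaperone of prenylated proteins and no enzyme. Its log2 fold change was −0.02 (95% interval −0.12 to 0.07). Pde6b, a catalytic subunit of the photoreceptor enzyme, had 47 to 55 counts in WT and 26 to 47 in Hint1-/- samples (log2 fold change −0.42, adjusted p = 0.107 by edgeR's test). Pde6a (at most 2 counts) and Pde9a (at most 5 counts) were below the filter.

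The make-up of the summed phosphodiesterase level per kilobase, leaving out PDE6, shifted in both directions. PDE1 was the largest family and went from 34.4% ± 0.777 in WT to 37.0% ± 0.636 in Hint1-/- MASMCs (SD, n = 4). PDE4 went from 21.8% ± 0.331 to 22.9% ± 0.611, and PDE5 from 3.37% ± 0.176 to 4.16% ± 0.107. PDE2 went the other way, from 8.34% ± 0.465 to 5.80% ± 0.171, as did PDE3, from 9.33% ± 0.518 to 8.10% ± 0.404, and PDE8, from 14.5% ± 0.314 to 13.3% ± 0.476. In each of these 6 families the genotypes did not overlap, while PDE7 (6.29% ± 0.301 and 6.78% ± 0.349) and PDE10 (1.85% ± 0.149 and 1.83% ± 0.190) overlapped. The PDE4 ranges nearly met, with a highest WT share of 22.26% and a lowest Hint1-/- share of 22.28%. Shares of 1 sum are bound to one another, and PDE8 took a lower share although neither Pde8a nor Pde8b was called. These shares describe RNA and say nothing of enzyme activity.

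**Figure D3:**
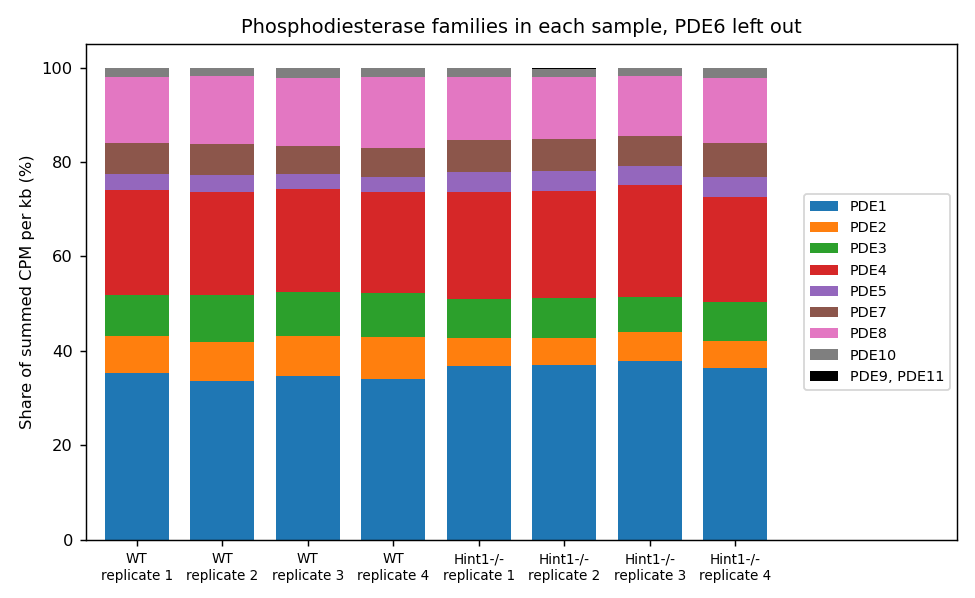
Share of each phosphodiesterase family in the summed CPM per kilobase of each sample (y axis, percent), without PDE6, in 4 WT and 4 Hint1-/- samples. PDE1 is the largest block in every bar, at 33.6% to 35.3% in WT and 36.4% to 37.9% in Hint1-/- samples, and PDE2 takes 7.78% to 8.88% in WT and 5.64% to 5.99% in Hint1-/- samples.

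Among the kinases that read cAMP and cGMP, some PKA subunits were the most abundant members, while the PKG genes were low. Prkar1a, the type I regulatory subunit of PKA, had the highest level per kilobase of all, at 75.0 ± 1.21 CPM per kilobase in WT samples. The catalytic subunit Prkaca followed with 41.5 ± 2.12, and Prkar2a (20.8 ± 0.326) and Prkacb (16.6 ± 0.756) lay near Npr2, Pde1a, and Adcy7. Of the 6 PKA genes, 3 were lower by edgeR and 2 each by DESeq2 and limma-voom, beside 10.2% of all tested genes lower by edgeR. The number higher was 0 by all of these tools and at an unadjusted p under 0.05 in edgeR.

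Both type II regulatory subunits, which anchoring proteins hold at membranes and organelles, were lower. Prkar2a, on chromosome 9 from 108689314 to 108750436, had 2167, 2126, 2193, and 2132 counts in WT samples and 1981, 1948, 1994, and 1901 in Hint1-/- samples. Prkar2b, on chromosome 12 from 31958476 to 32061296, had 993, 1053, 973, and 1058 counts in WT samples and 922, 871, 931, and 879 in Hint1-/- samples. In both genes all Hint1-/- samples were below all WT samples, by a small margin. Prkar2a stood at 91.5% of WT (log2 fold change −0.13, SE 0.0324, adjusted p = 0.00763 by edgeR's test). Prkar2b stood at 89.1% of WT (log2 fold change −0.17, SE 0.041, adjusted p = 0.00627 by edgeR's test).

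The catalytic subunit Prkacb, on chromosome 3 from 146729574 to 146812990, had 1807, 1937, 1745, and 1765 counts in WT samples and 1702, 1653, 1662, and 1675 in Hint1-/- samples. It stood at 93% of WT with an adjusted p just under the limit (log2 fold change −0.11, SE 0.0368, adjusted p = 0.0486 by edgeR's test). The call was lost in 9 of the 15 alternatives, which were no filter, DESeq2, limma-voom, and each leave-one-out fit but those without WT replicate 3 or 4, and the adjusted p ranged from 0.0294 to 0.138.

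Prkaca, Prkar1a, and Prkar1b were not called, with log2 fold changes of 0.06 (95% interval −0.02 to 0.14), −0.04 (−0.10 to 0.03), and −0.10 (−0.23 to 0.03). Type II subunits made up 29.0% ± 0.437 of the regulatory level per kilobase in WT and 27.6% ± 0.594 in Hint1-/- MASMCs. Catalytic subunits made up 33.1% ± 0.507 and 34.4% ± 0.303 of the whole PKA level (SD, n = 4). Neither pair of ranges overlapped, but both nearly met. For type II subunits the lowest WT share was 28.34% and the highest Hint1-/- share 28.25%. For catalytic subunits the highest WT share was 33.80% and the lowest Hint1-/- share 33.95%.

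Of the PKG genes, Prkg2, the membrane-bound kinase best known from gut and bone, was lower. It lies on chromosome 5 from 98929773 to 99037351 and had 133, 151, 143, and 143 counts in WT samples and 108, 81, 109, and 97 in Hint1-/- samples. The highest Hint1-/- sample was below the lowest WT sample, at 69.9% of WT overall (log2 fold change −0.52, SE 0.103, adjusted p = 0.00123 by edgeR's test). Prkg1, the kinase through which NO relaxes smooth muscle, had 215 to 313 counts in WT and 229 to 260 in Hint1-/- samples. Its levels overlapped entirely, at 12.1 ± 1.98 and 12.1 ± 0.702 CPM (log2 fold change −0.01, 95% interval −0.20 to 0.19).

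**Figure D4:**
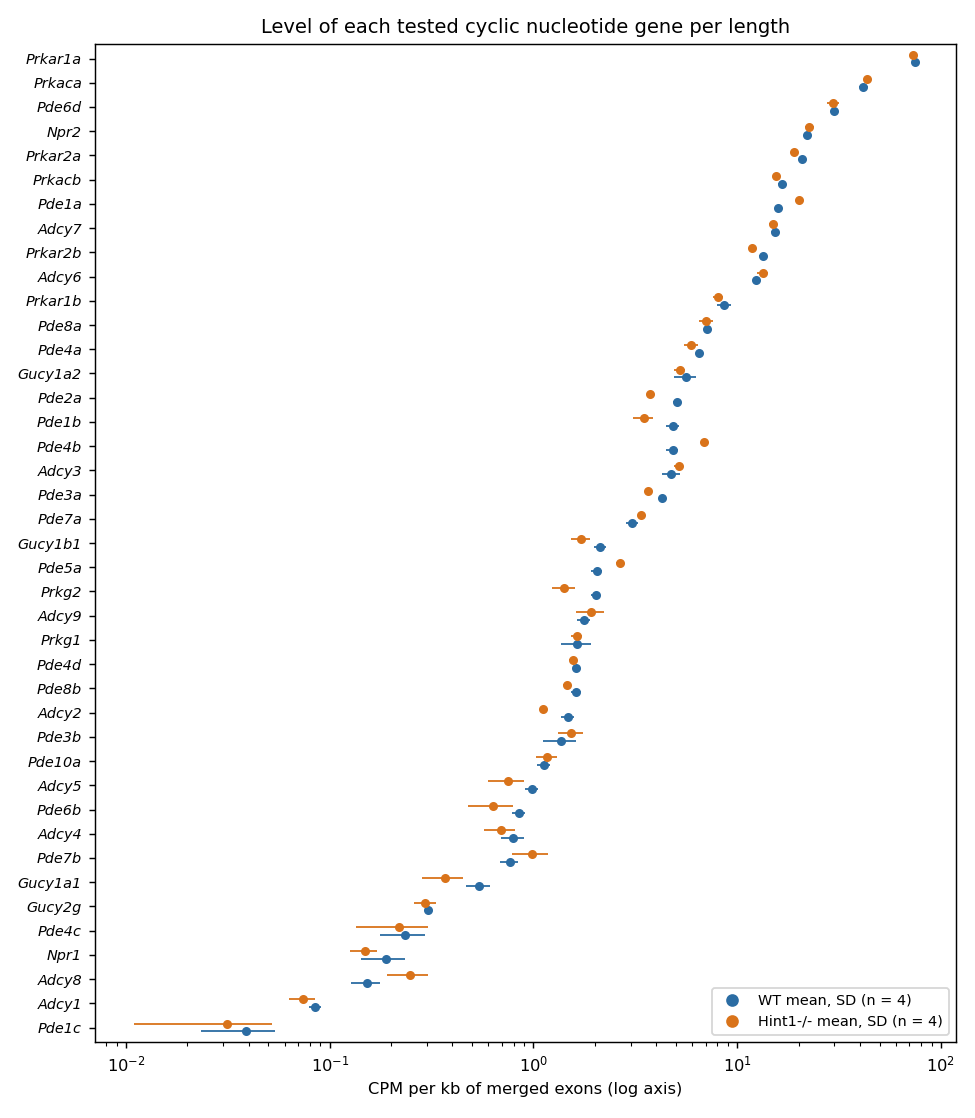
Mean level of each of the 41 tested genes in CPM per kilobase of merged exons (x axis, log scale), with SD bars, in WT (blue, n = 4) and Hint1-/- (orange, n = 4) samples. Levels run from 0.0386 for Pde1c to 75.0 for Prkar1a in WT and the called genes lie between 0.152 (Adcy8) and 20.8 (Prkar2a).

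Other genes of both pathways were taken from 10 lists of ligand synthases, G proteins, effectors, anchors, targets, and pumps. Of 90 symbols listed, with Irag1 and Mrvi1 as names of 1 gene, 71 were tested, 8 were higher, and 10 were lower, which is 25.4% beside 21.5% of all tested genes. Their median log2 fold change was 0.00, and 6 passed a fold change of 1.5 as well.

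Upstream of cGMP, Nos2, the inducible NO synthase, showed the largest difference of any gene on these lists. It had 1037, 1094, 871, and 675 counts in WT samples and 2776, 3451, 2692, and 3282 in Hint1-/- samples. Every Hint1-/- sample held more than every WT sample, and the level rose from 44.0 ± 8.95 to 147 ± 18.2 CPM (SD, n = 4), a 3.34-fold difference (log2 fold change 1.74, SE 0.103, adjusted p = 4.68e-10 by edgeR's test). Nos2 is also a gene that macrophages induce. Of the 8 macrophage markers, 7 were lower in the same samples, and Mrc1 was not called (log2 fold change 0.58, adjusted p = 0.074 by edgeR's test). Which cells carried the Nos2 RNA was not tested. Npr3, the receptor that clears natriuretic peptides, was higher as well (log2 fold change 0.16, adjusted p = 0.0415 by edgeR's test). Its genotypes overlapped, at 729 to 897 counts in WT and 884 to 977 in Hint1-/- samples, and DESeq2 did not call it. The neuronal synthase Nos1 had 16 to 42 counts without a call (log2 fold change −0.49, adjusted p = 0.152). The endothelial synthase Nos3 (6 to 14 counts) and the peptides Nppa, Nppb, and Nppc (at most 14 counts) were below the filter.

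Of the 7 G protein α subunits that act on cyclases, Gnao1 was higher (log2 fold change 0.64, SE 0.0909, adjusted p = 4.37e-05 by edgeR's test) and Gnal was lower. Those 2 calls were 28.6% of the list, beside 21.5% of all tested genes. Gnao1, of the Go type, had 91, 97, 105, and 105 counts in WT samples and 158, 150, 146, and 160 in Hint1-/- samples, with no overlap. Gnal, the olfactory stimulatory subunit, had 36, 41, 31, and 41 counts in WT samples and 14, 24, 32, and 12 in Hint1-/- samples, which overlapped. Gnal fell by 0.85 on the log2 scale (SE 0.249, adjusted p = 0.02 by edgeR's test), and the call was lost without Hint1-/- replicate 1 or 4 (0.0715 and 0.0762, in a range from 0.00376 over all alternatives). The abundant Gnas and Gnai2, with 21719 to 23326 and 16174 to 18429 counts, had log2 fold changes of 0.03 and −0.06 and no call.

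The effector list held 1 call among 7 tested genes, or 14.3% beside 21.5% of all tested genes. The cone channel subunit Cnga3 had 26, 37, 31, and 31 counts in WT and 16, 27, 12, and 16 in Hint1-/- samples (log2 fold change −0.80, SE 0.238, adjusted p = 0.0211 by edgeR's test). It lost its call without WT replicate 2 or Hint1-/- replicate 1, 3, or 4 (0.0595 to 0.0733, in a range from 0.00461). The cAMP-activated exchange factor Rapgef3 had 471 to 579 counts without a call (log2 fold change 0.13). Of the 4 genes for PKA inhibitors and the PKA-like kinase Prkx, 1 was called, or 25% beside 21.5% of all tested genes. Pkib was lower (log2 fold change −0.38, adjusted p = 0.0475 by edgeR's test). That call was lost in 8 alternatives, which were the replicate block, DESeq2, limma-voom, and the fits without WT replicate 2 or 4 or Hint1-/- replicate 1, 2, or 4, with an adjusted p from 0.0275 to 0.146 over all 15. On the list of other phosphodiesterases, 0 of 2 tested genes were called by edgeR, DESeq2, or limma-voom, or had an unadjusted p under 0.05 in edgeR.

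Of 20 tested A-kinase anchoring proteins, which tether PKA through its regulatory subunits, 3 were higher and 4 were lower. That is 35% called by edgeR, beside 21.5% of all tested genes. DESeq2 called 1 higher and 4 lower. Akap5, which holds PKA beside adenylyl cyclase and calcineurin at the membrane, fell most. It had 59, 37, 33, and 37 counts in WT samples and 16, 18, 13, and 14 in Hint1-/- samples, with no overlap (log2 fold change −1.43, SE 0.234, adjusted p = 0.000188 by edgeR's test). Akap6, the anchor of the nuclear envelope in muscle, had 47, 60, 47, and 67 counts in WT samples and 41, 34, 35, and 36 in Hint1-/- samples. It fell by 0.59 on the log2 scale (SE 0.165, adjusted p = 0.0156 by edgeR's test), with an adjusted p of 0.0616 without WT replicate 4, in a range from 0.0104 over all alternatives. Akap12, Msn, Akap9, Rdx, and Pcnt made up the other 5 calls, all under a fold change of 1.5.

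Of the 8 genes for CREB, its relatives, and its coactivators, 0 were called by edgeR's quasi-likelihood test, DESeq2, or limma-voom. By edgeR, 21.5% of all tested genes were called. In the list, 1 gene (Ep300) had an unadjusted p under 0.05 in edgeR. The log2 fold changes of the 8 genes lay between −0.07 and 0.11. Of 9 tested genes that CREB is known to induce, 2 were lower and 1 was higher, or 33.3% called beside 21.5% of all tested genes. Nr4a1 had 303, 271, 285, and 298 counts in WT and 255, 205, 216, and 220 in Hint1-/- samples (log2 fold change −0.36, SE 0.0738, adjusted p = 0.00161 by edgeR's test). Fos had 209, 201, 210, and 171 counts in WT and 148, 177, 171, and 158 in Hint1-/- samples (log2 fold change −0.26, adjusted p = 0.0365). Fos overlapped between genotypes and lost its call in DESeq2 and without WT replicate 1, 2, or 3 or Hint1-/- replicate 1 or 4 (0.0647 to 0.115, in a range from 0.0103). Bdnf was higher (log2 fold change 0.24, adjusted p = 0.000298 by edgeR's test). Growth factors such as PDGF-BB induce several of these genes as well.

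Of 9 tested smooth muscle proteins that PKG or PKA phosphorylates, 1 was called, or 11.1% beside 21.5% of all tested genes. This was Ppp1cb, at a log2 fold change of 0.09 (adjusted p = 0.0489 by edgeR's test). It lost that call in 13 of the 15 alternatives, every one but the fit without WT replicate 1 and limma-voom, with an adjusted p between 0.038 and 0.131. Vasp, Rhoa, Ppp1r12a, and Itpr1, each with at least 1069 counts in every sample, had log2 fold changes between −0.09 and 0.09 and no call. Mrvi1, with 93 to 169 counts, had the largest change of the list without a call (log2 fold change −0.27, adjusted p = 0.121 by edgeR's test). Mrvi1 and Vasp were lower at an unadjusted p under 0.05 in edgeR. The cAMP and cGMP efflux pump Abcc4 was lower, with 816, 905, 901, and 921 counts in WT and 769, 735, 715, and 702 in Hint1-/- samples (log2 fold change −0.27, SE 0.0465, adjusted p = 0.00034 by edgeR's test). Its relative Abcc5 had 1602 to 1857 counts and a log2 fold change of 0.06 without a call.

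**Figure D5:**
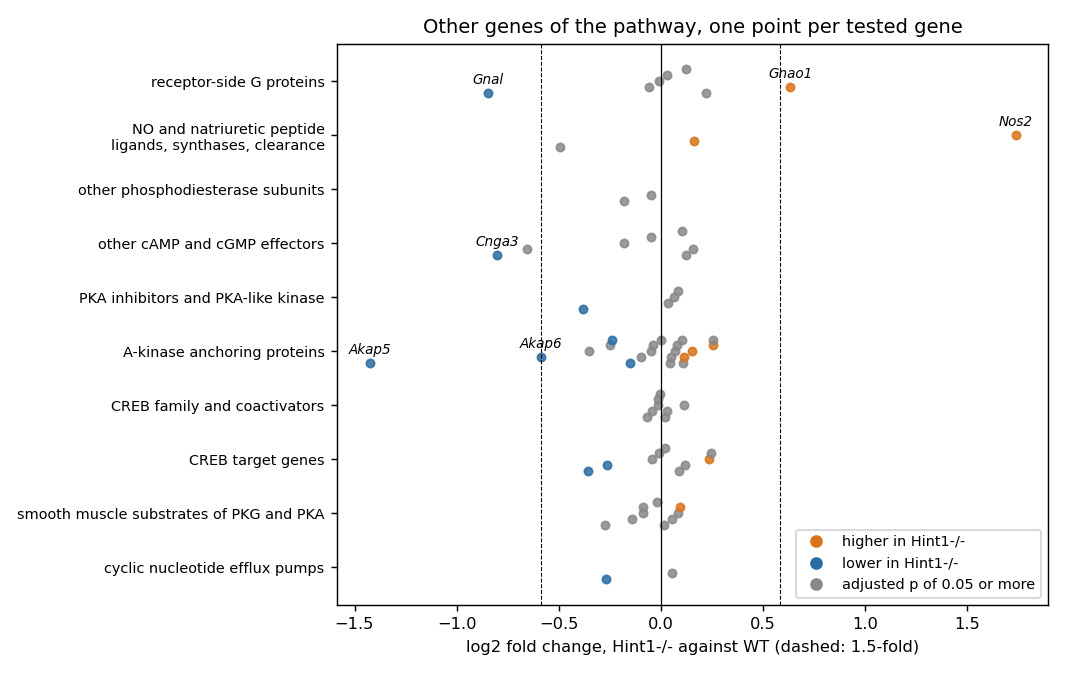
Log2 fold change (x axis, Hint1-/- against WT) of the 71 tested genes on the 10 lists of other pathway genes, with 1 point per gene and dashed lines at a 1.5-fold change. Nos2 at 1.74 and Akap5 at −1.43 lie farthest from 0, and no gene of the CREB list (8 genes) is colored as called.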

How the data were processed

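RNA-Seq counts were analysed for 4 WT and 4 Hint1-/- MASMC samples. For each sample, estimated counts of 18533 gene symbols had been deposited by the authors, without normalization. The submitters' processing notes name Bowtie2, RSEM 1.3.1, DESeq2 1.4.5, and mm10, whereas the study's methods name HISAT2, and the gene annotation and strand setting are not given in the sources used here. An estimated count divides reads that fit several genes or transcripts, so genes that share exons depend on that step. Between 67.3% and 67.8% of values were whole, and all were rounded before testing. Totals were 20778077 to 20888041 per sample.

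Genes were filtered with filterByExpr, normalized by TMM, and compared with edgeR 4.0.16 (R 4.3.3, glmQLFit and glmQLFTest, two-sided), with genotype as the only term and Benjamini-Hochberg adjustment over all 13535 tested genes. The limits were an adjusted p of 0.05 and, where stated, a fold change of 1.5. The same fit was also run on simulated counts, drawn with 1 spread for all genes and with 200 genes changed 2-fold. Of these, 96.5% passed both limits, with 1 false call past both limits and 6 past the adjusted p alone. Sums, shares, and means ± SD used CPM from TMM-scaled library sizes. Levels between genes were divided by merged exon length from GENCODE M21, which need not be the annotation behind the counts. Rankings, sums, and shares per kilobase depend on that length. A count of 0 pooled over a genotype was taken to allow 3 counts, and no fold rested on it. Genes with few counts, such as Adcy8 with 19 to 44 per sample, carry the widest error at this depth. Motifs were searched in the 250 bases upstream of RefSeq starts (GRCm38.p6).

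The gene lists and the members were chosen with earlier results of these data known. All members were described. Named genes of the other lists were those past both limits and, where a list had none, up to 2 with the largest change among those with an adjusted p under 0.05, and others were chosen after their values were seen. Of the listed genes, Cnga1, Akap4, and Akap14 were not analysed here, and Irag1 was analysed under its older symbol Mrvi1. Alternatives were DESeq2 size factors or upper-quartile factors in edgeR, no filter, a filter of 10 counts in all samples, a block for the replicate number, fits without 1 of the 8 samples, DESeq2 1.42.0, and limma-voom (limma 3.58.1). Scripts ran in Python 3.11.15.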

Additional observations from a re-analysis of the deposited data

Results flagged for a closer look

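Each gene was examined by genotype, which gave 104 groups. In 7 of them a single sample was set apart on the log2 CPM scale, measured as its gap to the nearest sample over the whole range of the group. Chance gives this in about 1 in 20 groups, or 5.2 of 104. Pde5a was the single called gene among them, with Hint1-/- sample 4 high at 476 counts beside 427 to 435 (gap 0.843). Among phosphodiesterases without a call, Pde3b was low in Hint1-/- sample 3 at 166 counts beside 216 to 228 (gap 0.841). Pde8b was low in Hint1-/- sample 4 at 145 counts beside 158 in each of the others (gap 0.942). Pde4c was low in WT sample 2 at 11 counts beside 19 to 20 (gap 0.907). Pde6b was high in WT sample 1 at 55 counts beside 47 to 48 (gap 0.880). Of the kinases, Prkar1a was high in WT sample 1 at 6518 counts beside 6312 to 6358 (gap 0.943), and Prkg1 was low in Hint1-/- sample 1 at 229 counts beside 255 to 260 (gap 0.848).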

How the results depend on the processing

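Of the 15 called members, 10 kept their call and all 15 kept their direction in the 15 alternatives. The number of members higher in Hint1-/- MASMCs was 4 and ranged from 3 to 5 with each sample left out, and the number lower was 11 and ranged from 8 to 10. Past both limits stood 1 member, with 0 to 2 when a sample was left out. It was 0 without WT replicate 2 or Hint1-/- replicate 1. It was 2 (Adcy8 and Gucy1a1) without WT replicate 3 or Hint1-/- replicate 2, while Gucy1a1 took the place of Adcy8 without WT replicate 4 or Hint1-/- replicate 4. DESeq2 gave 8 lower members. Of 26 members without a call, 5 gained 1 in at least 1 alternative (Adcy6, Pde4a, Pde6b, Pde7a, and Pde7b). Of all tested genes, 2907 were called, or 2258 to 2909 with a sample left out. The labels state no pairing behind the replicate numbers. In deviations from the genotype mean, same-numbered samples correlated at −0.045 to 0.0814 and samples of unlike number at −0.0704 to 0.130. Low correlations cannot show that no pairing exists. The replicate block gave 6 higher and 11 lower members and 3082 genes in all, adding Adcy6 and Pde7b to the members called. Pde1c and Pde4c gave no value under the filter of 10 counts. Values near 0 changed sign in 7 genes without a call, and the cause was not tested. With each sample left out, the log2 fold change ranged from −0.051 to 0.000505 in Adcy7 (the latter without WT replicate 4), from −0.11 to 0.025 in Gucy2g (without Hint1-/- replicate 1), from −0.0055 (without Hint1-/- replicate 4) to 0.12 in Pde10a, from −0.36 to 0.10 in Pde4c (without Hint1-/- replicate 2), from −0.076 to 0.0068 in Pde8a (without Hint1-/- replicate 3), from −0.061 to 0.015 in Pde6d (without Hint1-/- replicate 4), and from −0.078 to 0.11 in Prkg1 (without WT replicate 2, and 0.034 without Hint1-/- replicate 1). Prkg1 was at 0.0044 by limma-voom.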
